A study of Mus musculus with 4 samples.

Results

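The genes described here are 33 that carry glucose through glycolysis to pyruvate and lactate, move lactate across the cell membrane, admit pyruvate to the mitochondrion, and build or break down glycogen. They were taken by name from the 23475 genes of the deposited tables, and all 33 were listed with counts in all 4 libraries. Astrocytes were taken from the cerebral cortex of P5 mouse pups, their mRNA was sequenced as 4 libraries, and the reads were counted per gene. WT (n = 2) came from PD1fl/fl mice, which carry a floxed gene for the inhibitory immune receptor PD-1, and KO (n = 2) from PD1cKO-Cx3 mice, a conditional deletion of the same gene. It is not stated which promoter drives the recombinase behind the name Cx3, which exons were removed, whether WT mice carried a recombinase or whether animals were pooled. The comparison asks what differs in the astrocyte preparation when PD-1 is deleted.

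Glycolysis splits glucose into pyruvate in the cytosol and yields ATP without oxygen. Astrocytes are known as strongly glycolytic cells that hold most of the glycogen of the brain, make lactate from pyruvate and release it through monocarboxylate transporters, from which neurons and oligodendrocytes can take it up. Endothelial cells of brain vessels also carry glucose and monocarboxylate transporters, and microglia raise glycolysis when activated. Hypoxia-inducible factor (HIF) is a transcription factor known to act on many genes of this pathway.

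The 17 genes of glucose entry and glycolysis among the 33 had similar sums in both groups. They summed to 2892 and 2751 CPM (counts scaled to a common library total) in KO replicates 1 and 2 and to 2746 and 2683 CPM in WT replicates 1 and 2. Pkm was the largest part of these sums, so they can hide changes of less abundant genes. Eno1, the general enolase, is not among the 33 and is given below. All 3 lactate transporters were higher in both KO libraries than in both WT libraries, and none passed the test over all genes. Slc16a1 and Slc16a3, which encode the monocarboxylate transporters MCT1 and MCT4, were 2.50-fold and 2.62-fold higher in KO, and Slc16a7 (MCT2) had a log2 fold change of 0.72. None of the 33 genes passed the edgeR quasi-likelihood test (0 at a Benjamini-Hochberg adjusted p under 0.05, where 0.017% of the 17696 genes tested passed), 2 had an unadjusted p under 0.05 (8.29% of all genes did), DESeq2 called 2, both higher in KO (2.14% of all genes were called, 1.78% as higher), and limma-voom 0 (0.158%). The KO libraries lay above both WT libraries for 7 of the 33 genes (21.2% of all genes) and below both for 3 (18.4%). In all, 10 of the 33 genes and 39.6% of all genes showed no overlap between the groups. For the 31 genes other than Slc16a1 and Slc16a3 the edgeR adjusted p ran from 0.64 to 0.996. The median log2 fold change of KO over WT was -0.03 for the 33 genes and -0.00027 for all genes, with 15 of the 33 above 0. For 10 genes the 95% interval of the log2 fold change lay within 0.5 of 0 on both sides: Hk1, Pfkfb3, Aldoc, Tpi1, Pgk1, Pgam1, Pkm, Ldha, Ldhb and Pdha1. A log2 fold change of at least 0.5 in either direction was seen for 5 of the 33 genes (15.2%) and for 33.1% of all genes. All genes tested were not matched to the 33 for expression level.

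**Figure D1:**
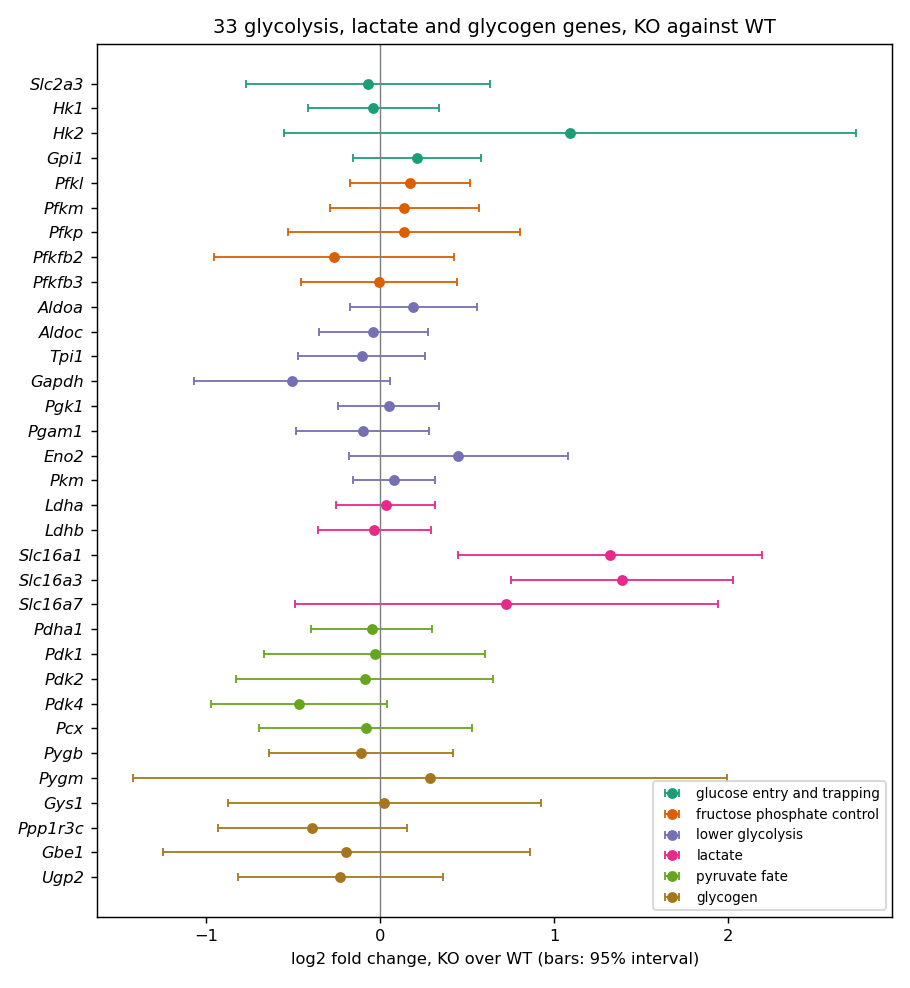
Log2 fold change of KO over WT for the 33 genes (x axis; points are edgeR estimates, bars their 95% intervals, n = 2 libraries a group), coloured by role. Only the intervals of Slc16a1 (0.45 to 2.2) and Slc16a3 (0.75 to 2.03) leave out 0, before adjustment for the number of genes.

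The preparations were not free of other cells, and bulk libraries cannot tell more cells of a type from more RNA per cell. Listed gene counts per library ranged from 14224519 to 16961160. The targeted gene, Pdcd1, gave no check of the labels: it had 0 counts in both WT libraries, which allows up to 0.177 and 0.211 CPM in WT replicates 1 and 2 (counting error only), was not listed in KO replicate 1, which allows at most 4 counts, and had 20 counts in KO replicate 2. The groups are therefore those of the labels, and KO means the libraries labelled so. The 10 astrocyte markers were high in every library, with summed levels of 6338 to 7066 CPM in KO and 6679 to 7162 CPM in WT and Slc1a3 and Aqp4 as the most abundant. The 12 markers of microglia and macrophages summed to 4100 and 3423 CPM in KO and to 744 and 1057 CPM in WT (median log2 fold change 1.89; Csf1r and Cx3cr1 most abundant), and all 12 were separated. The 10 endothelial markers summed to 570 and 282 CPM in KO replicates 1 and 2 and to 171 and 64.7 CPM in WT replicates 1 and 2 (median 1.93; Cldn5 and Kdr most abundant), with all 10 separated and Abcb1a at 0 counts in WT replicate 2. Pericyte, oligodendrocyte precursor and mature oligodendrocyte markers had medians of 0.66, 0.35 and 0.84, neuronal markers -0.30, red blood cell markers 1.64 (3 of 5 tested) and ependymal markers -1.15 (3 of 6 tested), and among all these lists 1 microglial gene, P2ry12, passed over all genes. Ddx3y, which is Y-linked, had 2472 counts in KO replicate 2 and 0 in the rest, and Xist had 0 counts in KO replicate 2 alone. The labels do not say that libraries came from separate animals, so p-values cover only the variation among these 4 libraries. The counts of Ddx3y and Xist show that the KO libraries did not come from the same animals; for the WT libraries the variation may be technical.

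Levels of different genes were compared per kilobase (kb) of annotated exon. Pkm, the pyruvate kinase that makes pyruvate in the last step of glycolysis, stood highest, at 168 and 169 CPM per kb in KO and 168 and 152 in WT. Ldhb, Ldha, Pgk1 and Aldoc followed, with means over the libraries of 141, 127, 123 and 102 CPM per kb, and Ldhb, Ldha and Pgk1 overlapped one another over the 4 libraries. At the low end stood Hk2, Gbe1, Pygm and Slc16a7, at 2.79, 2.31, 1.11 and 1.03 CPM per kb. Hk2 overlapped the other 3, and Gbe1 lay above Pygm and Slc16a7 in every library. The plot of levels per kilobase shows that Slc16a1, rank 10 in this order, was the most spread of the genes ranked 1 to 20, from 20.0 CPM per kb in WT replicate 2 to 84.6 in KO replicate 1.

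**Figure D2:**
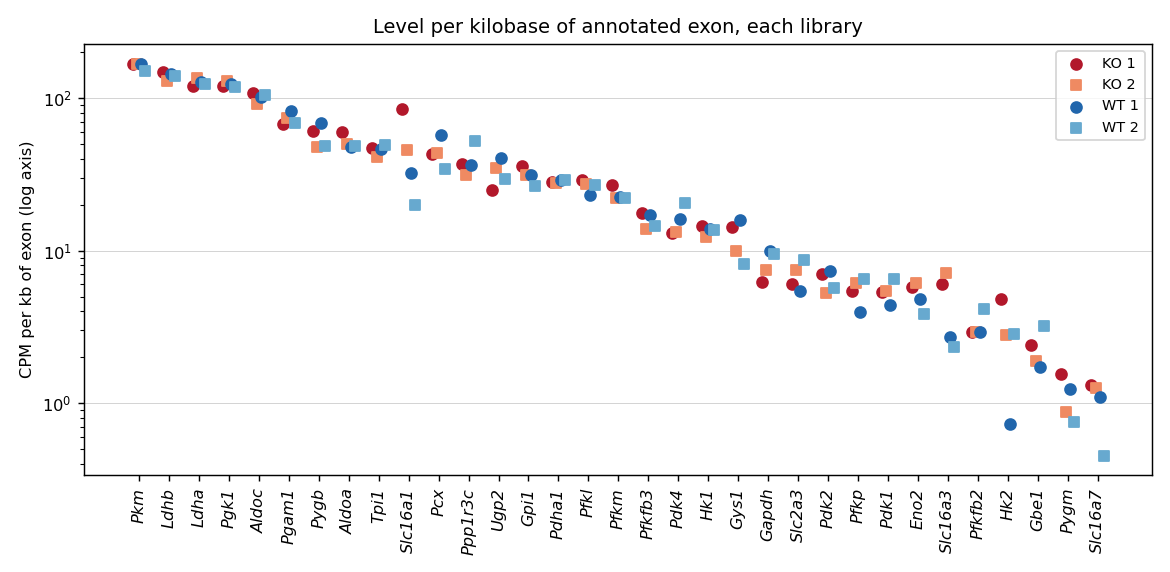
Level of each of the 33 genes in the 4 libraries (y axis, CPM per kb of annotated exon, log axis; genes ordered by their mean; red and orange are KO replicates 1 and 2, dark and light blue WT replicates 1 and 2). Pkm is highest at 152 to 169 CPM per kb, and the libraries lie close together for most genes, with Slc16a1, Slc16a3 and Hk2 among the exceptions.

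Glucose enters through GLUT transporters and is trapped by hexokinase. Slc2a3, the neuronal glucose transporter GLUT3, had 43.6 and 53.9 CPM in KO and 39.5 and 62.9 CPM in WT, so the groups overlapped (log2 fold change -0.07 ± 0.28 SE; these values and those below come from edgeR). Hk1, the main hexokinase of brain, had 124 and 105 CPM in KO and 118 and 117 CPM in WT (-0.04 ± 0.15). Hk2, the inducible hexokinase, had 28.6 and 16.7 CPM in KO replicates 1 and 2 and 4.33 and 16.96 CPM in WT replicates 1 and 2. Its log2 fold change of 1.09 ± 0.67 (adjusted p = 0.77) thus rested on WT replicate 1, since KO replicate 2 and WT replicate 2 were nearly equal. Leaving out WT replicate 1 gave 0.42, leaving out WT replicate 2 gave 2.39 and leaving out KO replicate 1 gave 0.65. Gpi1, the isomerase that turns glucose phosphate into fructose phosphate, had 231 and 204 CPM in KO and 204 and 171 CPM in WT (0.21 ± 0.15), with KO replicate 2 just below WT replicate 1.

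Phosphofructokinase commits the sugar to glycolysis, and its 3 subunit genes stood at log2 fold changes between 0.14 and 0.17. Pfkl, the liver-type subunit, had 194 and 183 CPM in KO and 155 and 180 CPM in WT, separated by a small gap (0.17 ± 0.14, adjusted p = 0.85). Pfkm, the muscle-type subunit, had 89.4 and 74.4 CPM in KO and 75.3 and 73.6 CPM in WT (0.14 ± 0.17). Pfkp, the platelet-type subunit, had 72.7 and 82.0 CPM in KO and 53.0 and 87.7 CPM in WT (0.14 ± 0.27). The WT libraries thus enclosed both KO libraries for Pfkp. The bifunctional Pfkfb enzymes set the level of a fructose bisphosphate that activates phosphofructokinase, and both genes overlapped between the groups. Pfkfb3, the isoform with the strongest kinase activity, had 133 and 106 CPM in KO and 130 and 110 CPM in WT (-0.01 ± 0.18), and Pfkfb2 had 21.3 CPM in both KO libraries and 21.3 and 30.03 CPM in WT (-0.27 ± 0.28).

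In the steps from aldolase to pyruvate kinase the log2 fold changes of the 8 genes ranged from -0.51 to 0.45 with a median of 0.0041. Aldolase splits the sugar into its triose phosphates, and in brain Aldoc marks astrocytes. Aldoc had 354 and 301 CPM in KO and 333 and 341 CPM in WT (-0.04 ± 0.13), while Aldoa, the general isoform, had 174 and 147 CPM in KO and 140 and 141 CPM in WT (0.19 ± 0.15). Tpi1, which interconverts the triose phosphates, had 131 and 114 CPM in KO and 127 and 136 CPM in WT (-0.11 ± 0.15). The 95% intervals of all 3 included 0, and Aldoa was separated between the groups by a small gap. Pgk1, which makes the first ATP of this phase, had 268 and 293 CPM in KO and 278 and 265 CPM in WT (0.05 ± 0.12). Pgam1, the mutase that follows, had 134 and 146 CPM in KO and 164 and 137 CPM in WT (-0.10 ± 0.15). Pgk1 is X-linked, as is Pdha1, and KO replicate 2, the library with Ddx3y counts, was the highest of the 4 for Pgk1 and the lowest for Pdha1 by small margins. Eno2, the neuronal enolase, had 27.0 and 28.7 CPM in KO and 22.6 and 18.1 CPM in WT (0.45 ± 0.26, adjusted p = 0.75), separated, beside neuronal markers whose median was -0.30. Pkm had 842 and 845 CPM in KO and 839 and 758 CPM in WT (0.08 ± 0.10, 95% interval -0.16 to 0.31), the narrowest interval among the 33 genes.

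Gapdh, the dehydrogenase of the middle step and a common reference gene, was among the least secure values. It had 25.6 and 31.03 CPM in KO and 41.4 and 39.1 CPM in WT, below WT in both KO libraries (log2 fold change -0.51 ± 0.23, adjusted p = 0.64). Per kilobase it lay at 6.18 to 10.02 CPM, below Pkm and Pgk1 in every library. The deposited tables also list 50 genes, most of them annotated as processed pseudogenes, whose transcripts are at least 95% identical to the Gapdh coding sequence over at least 50% of its length. Together these copies held 904 and 1138 counts in KO and 1328 and 1066 in WT, against 409 and 506 counts of Gapdh itself in KO and 699 and 563 in WT. Reads could thus be split among Gapdh and its copies, and with the copies added the log2 fold change was -0.35 (adjusted p = 0.67). For Pkm, Pgk1, Pgam1, Ldhb and Gpi1, which have 1 or 2 such copies each, the copies held at most 2.90% of the gene's own counts in any library. Exons of another listed gene overlap those of 12 of the 33 genes (Aldoa, Gapdh, Gpi1, Gys1, Hk1, Pdha1, Pfkfb2, Pfkm, Pfkp, Pkm, Slc16a7 and Tpi1), mostly on the opposite strand, and no source states that reads were assigned by strand. The same-strand overlap of Pkm with AC160637.1 spans 767 exonic bases, and that gene had 149 to 364 counts.

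Lactate dehydrogenase converts pyruvate to lactate and back, and the ratio of its A and B subunits is often used as a sign of which direction a cell favours. Ldha had 398 and 452 CPM in KO and 425 and 408 CPM in WT (0.03 ± 0.11), and Ldhb had 234 and 204 CPM in KO and 228 and 220 CPM in WT (-0.03 ± 0.13). The ratio of Ldha to Ldhb per kilobase was 0.81 and 1.05 in KO and 0.89 and 0.88 in WT, so both WT libraries lay between the KO libraries. The difference in its log2 was 0.06 (exact permutation test, two-sided, p = 1; with 2 libraries against 2 no test of this kind can go below p = 0.33).

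Monocarboxylate transporters carry lactate across the membrane together with a proton. Slc16a1 (MCT1, expressed in brain by endothelial cells, astrocytes and oligodendrocytes; ENSMUSG00000032902, GRCm38 chr3:104638668-104658462, + strand) had 375 and 204 CPM in KO replicates 1 and 2 and 143 and 88.5 CPM in WT replicates 1 and 2. Both KO libraries lay above both WT libraries, but KO replicate 2 was nearer to WT replicate 1 than to KO replicate 1. Its log2 fold change was 1.32 ± 0.35 (edgeR, unadjusted p = 0.010, adjusted p = 0.42; DESeq2, adjusted p = 0.0010; limma-voom, adjusted p = 0.33), and 0.82 without KO replicate 1. Slc16a3 (MCT4, the low-affinity exporter of strongly glycolytic cells; ENSMUSG00000025161, GRCm38 chr11:120948480-120960868, + strand) had 32.1 and 38.0 CPM in KO and 14.3 and 12.4 CPM in WT. Here the replicates lay close together and the groups far apart, with a log2 fold change of 1.39 ± 0.26 (edgeR, unadjusted p = 0.0019, adjusted p = 0.24; DESeq2, adjusted p = 0.010; limma-voom, adjusted p = 0.18) that stayed between 1.26 and 1.51 without any 1 library. Slc16a7 (MCT2, the high-affinity transporter of neurons) had 15.6 and 14.8 CPM in KO and 13.0 and 5.35 CPM in WT (0.72 ± 0.49, adjusted p = 0.81), and its difference was 1.5 and 0.23 when WT replicate 1 or WT replicate 2 was left out. In the authors' deposited table of each single KO library against each single WT library, the log2 fold change of Slc16a3 was 1.16, 1.35, 1.40 and 1.59 and that of Slc16a1 was 1.39, 2.06, 0.51 and 1.18, in the order KO 1 against WT 1, KO 1 against WT 2, KO 2 against WT 1 and KO 2 against WT 2. These pairs share libraries and are not independent of one another.

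**Figure D3:**
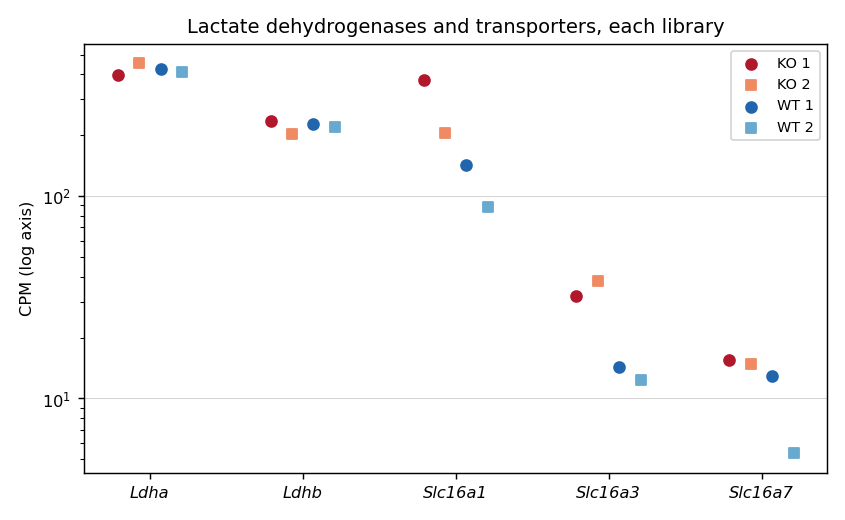
CPM (y axis, log axis) of the lactate dehydrogenase and monocarboxylate transporter genes in each library (red and orange are KO replicates 1 and 2, dark and light blue WT replicates 1 and 2). Ldha and Ldhb overlap between groups, whereas for Slc16a1, Slc16a3 and Slc16a7 both KO points lie above both WT points.

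Markers of several other cell types were, like these transporters, higher in KO. The order of the libraries for Slc16a1 was that of the summed endothelial markers, but not of these alone. Summed pericyte and smooth muscle markers had the same order (887 and 573 CPM in KO, 480 and 440 CPM in WT). Between the WT libraries that order rested on Cspg4 (145 and 77.3 CPM), which is also in the oligodendrocyte precursor list. Rgs5, the most abundant of these markers, did not have it (235 and 256 CPM in WT replicates 1 and 2). Summed red blood cell markers fell from KO replicate 1 to KO replicate 2 (75.4 and 51.1 CPM), but the WT libraries were nearly equal (20.56 and 20.44 CPM). Among them Alas2 ran the other way in both groups (15.8 and 18.9 CPM in KO, 5.93 and 9.11 CPM in WT). The ratio of Slc16a1 to the endothelial sum was 0.66 and 0.72 in KO and 0.83 and 1.37 in WT. For Slc16a3 the ratio to the summed microglia and macrophage markers was 0.0078 and 0.011 in KO and 0.019 and 0.012 in WT, and for Hk2 it was 0.0070 and 0.0049 in KO and 0.0058 and 0.016 in WT. The log2 fold changes of 1.32 for Slc16a1 and 1.39 for Slc16a3 stood beside medians of 1.93 over the endothelial and 1.89 over the microglia and macrophage markers. Between the KO libraries Slc16a3 was higher in replicate 2, in which the endothelial and microglial sums were lower. The order of the libraries for Slc16a3 was that of the summed mature oligodendrocyte markers (698 and 875 CPM in KO, 565 and 372 CPM in WT). Summed oligodendrocyte precursor markers had that order too (2476 and 2490 CPM in KO, 2341 and 1835 CPM in WT), but the KO libraries were nearly equal. Olig1, the most abundant of them, did not have it (1421 and 1439 CPM in KO, 1496 and 1067 CPM in WT). Pdgfra, the next, did (294 and 339 CPM in KO, 279 and 274 CPM in WT). The part of any of these cell types in the levels of Slc16a1, Slc16a3 and Hk2 was not tested. The ratio of Slc16a3 to Slc16a1 per kilobase was 0.071 and 0.15 in KO and 0.084 and 0.12 in WT, with no separation of the groups.

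**Figure D4:**
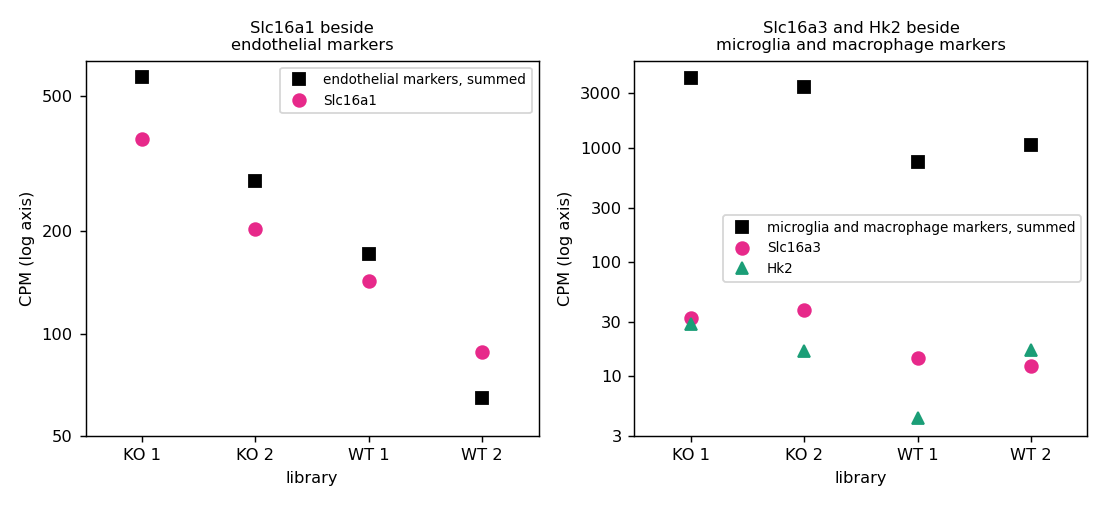
CPM (y axis, log axis) by library of Slc16a1 beside the summed endothelial markers (left) and of Slc16a3 and Hk2 beside the summed microglia and macrophage markers (right). Slc16a1 and the endothelial sum both descend from KO replicate 1 to WT replicate 2, and the microglial sum is 3423 to 4100 CPM in KO and 744 to 1057 CPM in WT. The sum of pericyte and smooth muscle markers, not drawn, descends in the same order, between the WT libraries through Cspg4. That of red blood cell markers, not drawn, descends in KO and is nearly equal in the WT libraries.

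The promoters of Slc16a1 and Slc16a3 are shown with those of Hk2 and Ldha, because Slc16a3, Hk2 and Ldha are known targets of HIF and Slc16a1 of MYC. Slc16a7 is not shown, since it had no RefSeq promoter window. Each is the stretch of 250 bases before a RefSeq start site on GRCm38.p6, read 5′ to 3′ in the direction of the gene, and capitals mark ACGTG or GCGTG, the core letters that HIF binds, on either strand.
Slc16a1, chr3:104638414-104638663 (+ strand): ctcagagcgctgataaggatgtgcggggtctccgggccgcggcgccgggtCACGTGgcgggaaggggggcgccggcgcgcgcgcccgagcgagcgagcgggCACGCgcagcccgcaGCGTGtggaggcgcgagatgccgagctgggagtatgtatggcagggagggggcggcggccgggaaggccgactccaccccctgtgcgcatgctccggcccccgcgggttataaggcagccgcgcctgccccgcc
Slc16a3, chr11:120948817-120949066 (+ strand): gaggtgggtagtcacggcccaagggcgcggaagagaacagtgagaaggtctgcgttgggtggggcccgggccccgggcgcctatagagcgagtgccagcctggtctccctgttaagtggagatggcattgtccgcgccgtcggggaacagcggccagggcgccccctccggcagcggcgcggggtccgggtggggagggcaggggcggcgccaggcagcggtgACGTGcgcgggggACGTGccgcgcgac
Hk2, chr6:82774455-82774704 (- strand): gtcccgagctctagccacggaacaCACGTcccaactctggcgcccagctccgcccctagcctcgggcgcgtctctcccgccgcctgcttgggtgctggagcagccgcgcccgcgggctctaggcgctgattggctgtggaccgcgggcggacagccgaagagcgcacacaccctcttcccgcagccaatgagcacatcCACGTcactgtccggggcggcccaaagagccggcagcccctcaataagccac
Ldha, chr7:46845554-46845803 (+ strand): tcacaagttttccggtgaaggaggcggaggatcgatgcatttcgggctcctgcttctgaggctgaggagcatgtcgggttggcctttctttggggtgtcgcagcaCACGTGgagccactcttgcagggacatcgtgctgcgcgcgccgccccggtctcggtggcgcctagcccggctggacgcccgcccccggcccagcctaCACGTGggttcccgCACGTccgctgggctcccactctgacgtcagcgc
The Slc16a3 and Ldha stretches lie inside their annotated genes, after the first annotated start, and 14 bases of the Slc16a3 stretch fall in annotated exons. Slc16a3 has a pair of ACGTG cores within the last 30 bases before its start, beginning at -27 and -14. In Slc16a1 the palindrome CACGTG, the E-box bound by MYC and related factors, begins at -200 and holds the ACGTG core on both strands, and in Ldha such palindromes begin at -145 and -48. Ldha has another RefSeq start, not printed, whose stretch (chr7:46846832-46847081) holds 0 ACGTG and 1 GCGTG. Hk2 has ACGTG cores beginning at -226 and -52, both on the opposite strand. Of the 33 genes, 31 had a RefSeq window (300 bases, with 50 after the start), and 26 of these (83.9%) held ACGTG or GCGTG on either strand in at least 1 window, against 46.7% of all 27025 genes in the table, noncoding genes included. CACGTG was in 8 of the 31 (25.8%), against 8.09% of all genes. A gene can have more than 1 window, which raises its share. Counted by window, ACGTG or GCGTG was in 34 of 47 (72.3%), against 43.8% of all 32851 windows. CACGTG was in 8 of 47 (17%), against 7.15%. Cores were also present in genes whose interval lay within 0.5 of 0, such as Ldha and Pgam1, and a match is a description of letters, not of binding.

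Pyruvate is drawn into the mitochondrion by pyruvate dehydrogenase, which pyruvate dehydrogenase kinases switch off, or is carboxylated by pyruvate carboxylase, an enzyme of astrocytes rather than neurons. All 5 genes of this step had log2 fold changes below 0, from -0.47 to -0.03. Pdk4, the kinase isoform raised in fasting, had 45.9 and 46.7 CPM in KO and 56.4 and 71.7 CPM in WT, below WT in both KO libraries (-0.47 ± 0.20, adjusted p = 0.64). Without WT replicate 2 its difference was -0.28. Pdk1, a HIF target, had 41.4 and 42.3 CPM in KO and 34.5 and 51.0 CPM in WT (-0.03 ± 0.26), and Pdk2, the widely expressed isoform, had 22.1 and 16.7 CPM in KO and 23.2 and 18.1 CPM in WT (-0.09 ± 0.30). Pdha1, the catalytic alpha subunit of the dehydrogenase, had 106 and 103 CPM in KO and 109 and 108 CPM in WT, a separation of the groups by a difference of -0.05 ± 0.14. Pcx, the carboxylase, had 205 and 207 CPM in KO and 274 and 163 CPM in WT (-0.08 ± 0.25), so that the WT libraries enclosed both KO libraries.

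The 6 glycogen genes overlapped between the groups without exception. Ugp2, which makes the sugar donor UDP-glucose, had 76.8 and 107 CPM in KO and 124 and 90.9 CPM in WT (-0.23 ± 0.24). Gys1, the glycogen synthase of brain, had 68.9 and 47.8 CPM in KO and 75.9 and 39.0 CPM in WT (0.02 ± 0.36). Gbe1, which adds the branches, had 12.8 and 10.2 CPM in KO and 9.19 and 17.2 CPM in WT (-0.20 ± 0.43). Within each group these genes differed by more than the groups did, and Gys1 was higher in replicate 1 than in replicate 2 of both groups. Pygb, the brain glycogen phosphorylase that releases glucose phosphate, had 293 and 229 CPM in KO and 331 and 233 CPM in WT (-0.11 ± 0.21). Pygm, the muscle isoform that astrocytes also express, had 5.0 and 2.82 CPM in KO and 3.97 and 2.43 CPM in WT (0.29 ± 0.69), and at 35 to 80 counts per library its interval of -1.42 to 2.00 was the widest. Ppp1r3c, a scaffold that targets protein phosphatase 1 to glycogen and favours its synthesis, had 100.7 and 85.5 CPM in KO and 100.1 and 144 CPM in WT (-0.39 ± 0.22, adjusted p = 0.74). Its difference was set mainly by WT replicate 2, without which it was -0.10.

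Ratios between isoforms do not depend on how libraries are scaled, and 3 of the 6 examined were separated between the groups. Among all genes, taken singly, 39.6% were separated. The part of the mix of cells in these ratios was not tested. Aldoc stood at 1.81 and 1.83 times Aldoa per kilobase in KO and at 2.11 and 2.16 times in WT, a difference in log2 of -0.23 with SDs of 0.011 in KO and 0.023 in WT (n = 2 each). Hk2 stood at 0.33 and 0.23 times Hk1 in KO and at 0.052 and 0.21 times in WT (difference in log2 1.39), which was 0.40 without WT replicate 1. Pygm stood at 0.0255 and 0.0184 times Pygb in KO and at 0.0179 and 0.0156 times in WT (0.37), a gap between KO replicate 2 and WT replicate 1 that is small beside the counts of Pygm. Each of these 3 had p = 0.33 in the exact two-sided permutation test (0.67 after Benjamini-Hochberg adjustment over the 6 ratios), the smallest that 2 against 2 libraries allow, and Pfkp over Pfkm overlapped (difference in log2 0.05, p = 1).

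**Figure D5:**
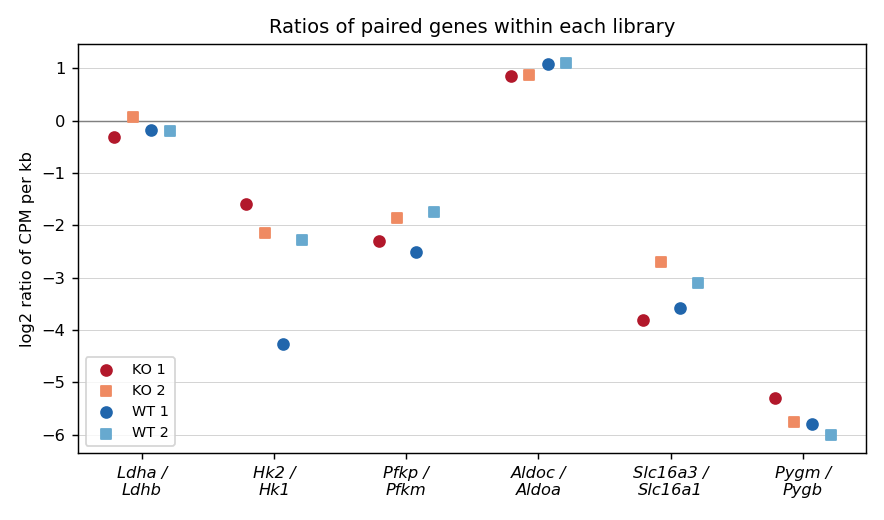
Log2 ratio of CPM per kb between 2 genes of one step within each library (y axis; red and orange are KO replicates 1 and 2, dark and light blue WT replicates 1 and 2). The KO points of Aldoc over Aldoa (0.86 and 0.87) lie below the WT points (1.08 and 1.11), and Ldha over Ldhb overlaps between the groups.

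Other genes of the same and neighbouring pathways are given as lists. Of 93 further genes of glucose transport, glycolysis, pyruvate handling, glycogen, the pentose phosphate pathway and the hypoxia response, 80 were tested, 0 passed over all genes, and 4 higher and 2 lower had an unadjusted p under 0.05 (5.88% and 2.41% of all genes). Among 21 tested genes of glycolysis and glucose transport the median log2 fold change was 0.10. Those with the smallest p were Hk3, the hexokinase of myeloid cells, with 34.2 and 25.4 CPM in KO and 6.46 and 3.55 CPM in WT (2.57 ± 0.41, adjusted p = 0.17), and Slc2a5, the fructose transporter GLUT5 of microglia, with 49.8 and 34.7 CPM in KO and 15.5 and 16.2 CPM in WT (1.41 ± 0.28, adjusted p = 0.26). Both stood beside microglia and macrophage markers with a median of 1.89, whose part was not tested. Eno1, the general enolase, had 513 and 457 CPM in KO and 528 and 586 CPM in WT (-0.20), and Slc2a1, the glucose transporter GLUT1 of endothelium and astrocytes, had 309 and 183 CPM in KO and 185 and 141 CPM in WT (0.59). The value of Eno1 is uncertain, since reads could be split with Eno1b, whose transcript is 99.4% identical to the Eno1 coding sequence and which had 1183 and 1009 counts in KO and 7 and 11 in WT, against 8217 and 7454 counts of Eno1 in KO and 8915 and 8434 in WT. Bnip3l, a hypoxia-inducible gene, likewise has a copy, Bnip3l-ps, with 528 to 695 counts per library.

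Among 15 tested genes of lactate and pyruvate handling the median was 0.04. Bsg encodes basigin, the chaperone that brings MCT1 and MCT4 to the cell membrane and that is also abundant on brain endothelium. It had 838 and 679 CPM in KO and 604 and 503 CPM in WT, both KO libraries above both WT libraries (0.46 ± 0.15, unadjusted p = 0.023, adjusted p = 0.48). Slc16a6 and Pdhb, a transporter of the same family and the beta subunit of pyruvate dehydrogenase, had differences of 0.73 and 0.19. Among 19 tested glycogen genes the median was -0.02, with the kinase Gsk3b and the lysosomal glucosidase Gaa at -0.06 and -0.05 and the phosphatase scaffold Ppp1r3b at 2.28 ± 0.93 with at most 6.87 CPM. The 8 pentose phosphate genes had a median of 0.08, with Tkt, Taldo1, G6pdx and Pgls at -0.06, 0.09, 0.27 and -0.22. The 17 tested genes of the hypoxia response, among them the HIF subunit genes Hif1a and Epas1, had a median of -0.10, with 6 above 0 and 11 below. Hif1a, Bnip3l, Epas1 and Bnip3 stood at 0.18, -0.06, 0.87 and 0.49. In that list 0 genes had an unadjusted p under 0.05 with edgeR in either direction.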

How the data were processed

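Counts per gene of 2 KO and 2 WT libraries were joined from 4 deposited tables, each of 1 KO and 1 WT library. Counts of a library agreed between tables. The authors deposited whole-number counts, per the file headers. The deposited normalized values are CPM made by the authors, the count over the library's total, with a count of 0 replaced by 0.5 counts. The deposited log2 fold changes were made by the authors from the ratio of these CPM values. The deposited p-values are the authors' own, from a test without a stated name that set 1 library against 1. Bowtie2 2.2.3, TopHat2 2.0.12 and HTSeq 0.6.0 and the build mm9 are named in the submitters' processing notes, with no roles. Gene positions were identical to GENCODE M21 (GRCm38) for 90.6% of genes. A count in no table was set to 0; it can be at most 4, and such counts make up at most 0.0193% of a library.

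Groups were compared with edgeR 4.0.16 in R 4.3.3 (TMM, filterByExpr with a minimum count of 10, quasi-likelihood test, Benjamini-Hochberg over 17696 genes, threshold 0.05; 2 residual degrees of freedom), tested on simulated data. CPM printed here use TMM-scaled library sizes. Each SE is the log2 fold change over the root of its F. Lengths are the union of GENCODE M21 exons. Copies were found with BLAST 2.17.0. Replicates differed beyond sampling noise (chi-square per gene 17.9 between the KO and 27.0 between the WT libraries). All 33 genes are named; of each pathway list, those called, or, with none called, the 2 of highest CPM and the 2 of smallest p, and of each marker list the 2 of highest CPM. A gene that this rule would name is not reported here. The genes and lists were chosen with earlier results of these data known. Alternatives were DESeq2 1.42.0, limma-voom (limma 3.58.1), other scalings and filters, a replicate block, leaving out each library, unlisted counts at their limit, and copies summed; for ratios, a pseudocount of 0.5 CPM.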

Additional observations from a re-analysis of the deposited data

How the results depend on the processing

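The 3 genes that passed over all genes became 378 with DESeq2, 28 with limma-voom, 56 with no low-count filter and 68 with a filter on mean CPM (5 or more), and 0 (without KO replicate 2) to 42 (without WT replicate 2) when 1 library was left out; without KO replicate 1 and without WT replicate 1 they were 7 and 1. Of the 33 genes, 0 passed under each of these except DESeq2, which called 2, Slc16a1 and Slc16a3. The adjusted p over the other alternatives ran from 0.10 to 1.00 for Slc16a1 and from 0.13 to 0.97 for Slc16a3. The median over the 33 genes ran from -0.034 to 0.069 without 1 library (0.063 without KO replicate 2 and 0.069 without WT replicate 1). Across the settings that keep all libraries the direction held in every case but Pdk1, at 0.011 with limma-voom. Without any 1 library 15 genes kept their direction and 18 did not, with log2 fold changes for Slc2a3 from -0.36 to 0.31, Hk1 from -0.16 to 0.072, Pfkp from -0.18 to 0.55, Pfkfb2 from -0.49 to 0.0055, Pfkfb3 from -0.18 to 0.15, Aldoc from -0.16 to 0.071, Pgk1 from -0.018 to 0.11, Pgam1 from -0.22 to 0.037, Ldha from -0.065 to 0.12, Ldhb from -0.14 to 0.063, Pdk1 from -0.29 to 0.28, Pdk2 from -0.30 to 0.11, Pcx from -0.41 to 0.34, Pygb from -0.34 to 0.17, Pygm from -0.18 to 0.68, Gys1 from -0.38 to 0.58, Gbe1 from -0.58 to 0.33 and Ugp2 from -0.49 to 0.016. With the replicate block 4 genes passed over all genes and 0 of the 33, and the adjusted p of Slc16a1 was 0.10 and that of Slc16a3 0.31. Deviations of same-numbered libraries from their group means correlated at 0.04, and nothing in the labels says that the numbers pair libraries. Where a library was left out, the group of 1 was assumed to vary like the other group. The tests rest on 2 residual degrees of freedom.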
